A study of Mus musculus with 2 samples.

Results

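Type 1 conventional dendritic cells (cDC1), the CD8α+ dendritic cells of mouse spleen, are the dendritic cells best known for cross-presentation, the display of antigen from dead or infected cells on MHC class I to CD8 T cells. The 8 genes described here, Xcr1, Cd8a, Itgax, Zbtb46, Flt3, Cadm1, Naaa and Cd24a, encode proteins by which these cells are commonly recognised or on which their development rests. They were chosen by name, as the rows of the deposited expression table that carry these symbols, so that all 8 had a row among 4898. Poly(A) RNA had been sequenced from DC1940 cells, a line of mouse CD8α+ dendritic cells of C57BL/6 strain and wild type genotype, transduced with an empty vector and then activated with pIC, an agonist of the RNA receptor TLR3 made of synthetic double-stranded RNA. There were 2 libraries, both of this group, and no other group is analysed here. All values come from this 1 cell line, and the length of the activation is not given for these libraries.

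The table gives 1 value per gene for the activated cells, in FPKM (fragments per kilobase of transcript per 1000000 mapped fragments), a level scaled to transcript length. No value therefore has an SD, a number of replicates or a test, and library depth is unknown. The table's name presents its rows as genes that differ between unstimulated and pIC-activated cells. The size and direction of that difference are not analysed here, and the values below are levels after activation, not changes. Presence in the table was the condition by which the 8 genes were found, and nothing is read from it.

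In the steady state, cDC1 arise from bone marrow precursors under the growth factor FLT3 ligand, whose receptor is FLT3. Once committed, they switch on the conventional dendritic cell factor ZBTB46, and they carry the integrin chain CD11c (Itgax) together with CD8α, CD24 and the chemokine receptor XCR1 on their surface. XCR1 binds XCL1, a chemokine released by natural killer cells and activated CD8 T cells, and so brings cDC1 close to the cells that they prime.

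The 8 genes spread widely, with Xcr1 and Cd8a far above the others and Flt3 lowest. Xcr1 had 387 FPKM and Cd8a 292 FPKM. Naaa followed at 58.6 FPKM and Itgax at 47.9 FPKM. Cd24a and Zbtb46 stood side by side at 24.9 and 24.3 FPKM. Cadm1 had 9.81 FPKM and Flt3 5.62 FPKM. The highest level was thus 68.8 times the lowest. The widest step between neighbours in this order, 4.98-fold, lay between Cd8a and Naaa, and the narrowest, 1.02-fold, between Cd24a and Zbtb46. With no spread between libraries in the table, whether any neighbours in the order differ could not be tested.

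**Figure D1:**
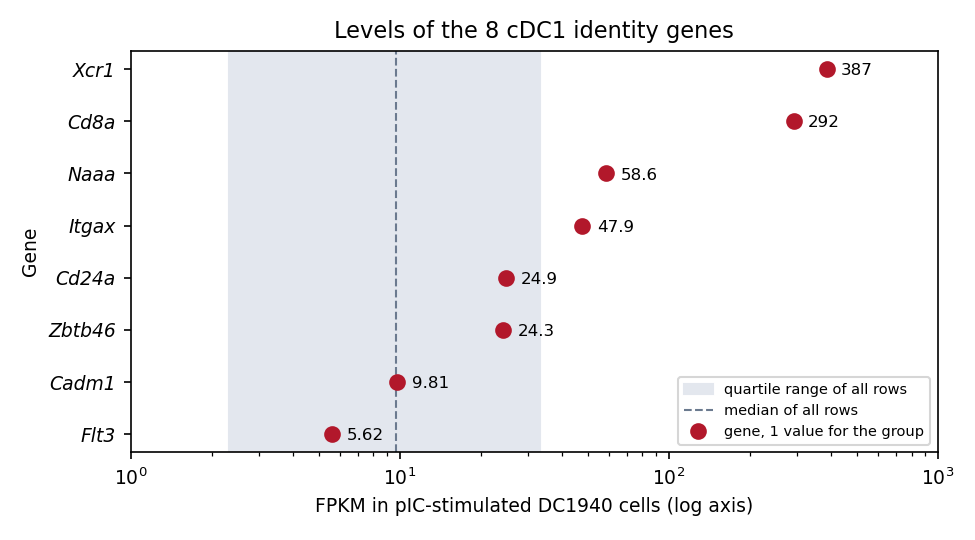
Level of each gene in pIC-activated DC1940 cells, in FPKM on a log axis, with 1 point per gene and no error because the table holds 1 value for the group. The shaded band spans the quartiles of all rows (2.32 to 33.4 FPKM) and the dashed line is their median (9.68 FPKM). Xcr1 at 387 and Cd8a at 292 FPKM stand far right of the band, and Flt3 at 5.62 FPKM is the only gene of the 8 left of the median.

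The median of the 8 genes was 36.4 FPKM, beside 9.68 FPKM over all rows of the table. Of the 8, 7 lay above the median of all rows and 4 (Xcr1, Cd8a, Naaa and Itgax) above the upper quartile of 33.4 FPKM. At 100 FPKM or more stood 2 of the 8, Xcr1 and Cd8a, where 9.60% of all rows reach that level. These 2 genes held 79.9% of the FPKM summed over the 8, and the 8 together 0.302% of the FPKM summed over all rows.

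Windows at annotated transcript starts show how the sequences there look beside these levels. RefSeq windows of 300 bases on GRCm38.p6, from 250 bases before to 50 after a transcript start, were held for 6 of the 8 genes, and 4 are printed here, those of the 2 highest genes and of the 2 that share an AP-1 match. Capitals mark every match to the motifs searched on both strands: GAAANNGAA (a repeat bound by interferon regulatory factors), GGAANNGAA (a composite of ETS and interferon regulatory factors), GAGGAA (the core bound by PU.1), TGANTCA (bound by AP-1 and BATF), GGANNTTCC (bound by NF-kB) and TATAAA (the TATA box).
Xcr1: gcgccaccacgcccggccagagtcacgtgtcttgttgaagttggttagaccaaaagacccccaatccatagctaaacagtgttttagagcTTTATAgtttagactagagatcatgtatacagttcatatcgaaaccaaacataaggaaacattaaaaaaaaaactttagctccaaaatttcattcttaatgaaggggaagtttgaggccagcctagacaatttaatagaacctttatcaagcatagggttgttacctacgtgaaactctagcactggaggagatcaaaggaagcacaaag
Cd8a: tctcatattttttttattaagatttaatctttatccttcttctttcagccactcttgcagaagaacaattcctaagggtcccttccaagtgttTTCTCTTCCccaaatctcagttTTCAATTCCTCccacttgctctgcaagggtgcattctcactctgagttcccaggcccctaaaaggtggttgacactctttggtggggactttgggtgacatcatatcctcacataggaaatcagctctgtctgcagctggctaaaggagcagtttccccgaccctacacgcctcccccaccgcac
Itgax: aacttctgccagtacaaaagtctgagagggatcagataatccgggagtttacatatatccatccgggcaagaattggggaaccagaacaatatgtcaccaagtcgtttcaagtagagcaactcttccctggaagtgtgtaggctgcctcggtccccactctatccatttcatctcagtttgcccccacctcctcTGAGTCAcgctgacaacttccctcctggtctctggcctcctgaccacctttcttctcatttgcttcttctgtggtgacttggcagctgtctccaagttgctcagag
Zbtb46: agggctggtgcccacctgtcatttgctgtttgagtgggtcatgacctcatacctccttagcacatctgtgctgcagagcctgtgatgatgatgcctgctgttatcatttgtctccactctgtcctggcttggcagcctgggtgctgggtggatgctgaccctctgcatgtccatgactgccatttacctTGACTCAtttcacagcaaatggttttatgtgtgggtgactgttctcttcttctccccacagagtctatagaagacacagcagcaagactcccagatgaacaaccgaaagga

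The Xcr1 window lies on the minus strand at chr9:123861980-123862279, that of Cd8a on the plus strand at chr6:71373177-71373476, that of Itgax on the plus strand at chr7:128129300-128129599 and that of Zbtb46 on the minus strand at chr2:181424339-181424638. The start used for Zbtb46 lies 35038 bases inside the interval of its row, so the window does not lie at the outer end of that row. The bases just before this start are a run mostly of C and T that ends in CAG, the letters with which introns commonly end. This window may therefore be intron, and whether transcription starts there was not tested. TGANTCA was found once in the Itgax window, beginning at position -56 from the transcript start, and once in the Zbtb46 window, beginning at position -61. Of all 32851 windows, 7.81% hold this motif. The Cd8a window holds GGAANNGAA on the other strand at 2 places, positions -157 and -135, and the match at -135 overlaps one to GAGGAA at position -130. GGAANNGAA is found in 8.24% of all windows and GAGGAA in 28.3%. In the Xcr1 window only TATAAA was matched, on the other strand at position -160, and 13.6% of all windows hold it. Neither GAAANNGAA (8.56% of all windows) nor GGANNTTCC (4.26%) was matched in any of the 6 windows, and those of Naaa and Flt3 held no match to any of the 6 motifs. Base composition differed among the 6, with 61.0% G and C and 18 CpG in the Flt3 window, 58.7% and 12 in that of Naaa, 50.7% and 1 in that of Zbtb46, 46.7% and 3 in that of Cd8a, and 40.0% and 6 in that of Xcr1, while Itgax, with 5 CpG, lay between Zbtb46 and Cd8a in G and C. The medians over all windows were 52.7% and 7 CpG. The 2 genes with the highest levels thus had the lowest shares of G and C of the 6. Flt3, with the lowest level, had the highest share. Naaa, next by level after the 2 highest at 58.6 FPKM, broke this order with 58.7%. This is a description of 6 sequences with no test, and no link between composition and level is claimed. The Zbtb46 window may be intron, and Cadm1 and Cd24a had no window. A match is a run of letters, and binding was not measured.

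Xcr1 encodes the receptor for XCL1, and in mouse it is the surface protein most closely tied to cDC1. Its 387 FPKM placed it at rank 98 of 4898 rows, with 98.0% of rows at or below it. The row covers chromosome 9 from 123852315 to 123862029 on mm10, minus strand, with 1 accession of 2 exons and 4453 bases. It was the highest of the chemokine receptor genes with a row. Of 24 protein-coding genes of this family in RefSeq, 5 had a row (20.8%, beside 22.3% of all RefSeq protein-coding genes). Xcr1 was 19.8 times as high as the next, Ccr2, a receptor of monocytes, at 19.6 FPKM. Ccrl2, which binds chemoattractants without signalling like a classical receptor, had 10.1 FPKM. Cxcr4, the CXCL12 receptor, had 0.957 FPKM and Cxcr3, a receptor for interferon-induced chemokines, 0.114 FPKM. The levels of the other 19 receptors, and of the ligand gene Xcl1, are not analysed here.

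Cd8a encodes the α chain of CD8, which pairs with the β chain on T cells and with itself on cDC1. The row (chromosome 6, 71373427 to 71379171, plus strand, 2 accessions of 4 to 5 exons) had 292 FPKM, rank 144. Cd8b1, the gene of the β chain, lies 35975 bases away on the same chromosome (71322812 to 71337451) and had 2.11 FPKM. The level of Cd8a was therefore 139 times that of Cd8b1. The kinase gene Lck, whose protein binds the tail of CD8α in T cells, had 1.22 FPKM in a row that carries accessions of 2 genes. MHC class I, to which CD8 binds, was abundant by its light chain gene B2m, at 3006 FPKM. Its heavy chain genes H2-D1 and H2-K1 had 1105 and 755 FPKM, values given as uncertain because these genes resemble one another closely.

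Itgax encodes CD11c, the integrin α chain by which dendritic cells are most often gated, although some macrophages and lymphocytes carry it too. Its row (chromosome 7, 128129568 to 128150657, plus strand, 1 accession of 30 exons) had 47.9 FPKM, rank 916. Of 27 integrin chain genes, 10 had a row (37.0%, beside 22.3% of RefSeq protein-coding genes), and Itgax stood below 3 of them. Itgb1, the β1 chain of many integrins, had 232 FPKM, Itga5, the α chain of a fibronectin receptor, 79.3 FPKM, and Itga4, an α chain that binds VCAM1 and fibronectin, 69.0 FPKM. Of the α chains that share the β2 partner with CD11c, Itgal (CD11a) had 38.1 FPKM and Itgam (CD11b), which marks macrophages and the other conventional dendritic cells, 0.176 FPKM. Itgax was thus 1.25 times as high as Itgal and 273 times as high as Itgam. The ratio to Itgam rests on a level under 1 FPKM, so its size is uncertain. The levels of Itgad, Itgae and the partner gene Itgb2 are not analysed here. Icam1, a ligand of β2 integrins, had 475 FPKM. The Itgax transcript aligns to that of Itgad over 758 bases at 94.99% identity, and reads shared by both were not measured.

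Cadm1 encodes an immunoglobulin-type adhesion molecule that binds CRTAM on activated T cells and marks cDC1 in mouse and human. At 9.81 FPKM, rank 2437, it stood almost on the median of all rows. Its row is the longest of the 8 (chromosome 9, 47530170 to 47853391, plus strand, 323222 bases) and pools 5 accessions of 9 to 12 exons. The interval holds 2 further unclassified GENCODE loci, Gm47198 on the same strand and Gm47197 on the other. Of the 8 Cadm and Nectin genes, 3 had a row (37.5%, beside 22.3% of RefSeq protein-coding genes). Cadm1 was the lowest of the 3, below Nectin2 at 105 FPKM and Nectin1 at 28.8 FPKM, both adhesion molecules of cell junctions. Nectin1 and Nectin2 carry the older symbols Pvrl1 and Pvrl2 in the table.

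Cd24a encodes CD24, a small and heavily glycosylated surface protein with a lipid anchor, found on cDC1, B cells and many precursors. It had 24.9 FPKM, rank 1502, in a row of 1 accession of 2 exons (chromosome 10, 43579169 to 43584265, plus strand). Siglecg, the gene of a lectin that binds CD24, had 0.342 FPKM. Processed pseudogenes resemble the Cd24a transcript, Gm6212 over 218 bases at 96.8% identity and Gm15352 over 259 bases at 92.3%. Reads shared with these were not measured, and the level is given as uncertain for this reason.

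Flt3 encodes the receptor kinase through which FLT3 ligand drives dendritic cell development. It was the lowest of the 8, at 5.62 FPKM and rank 2924, with 40.3% of rows at or below it (chromosome 5, 147330742 to 147400489, minus strand, 1 accession of 24 exons). The antisense gene Gm26597 shares 936 bases of this interval. The sources used here do not say whether the counting used strand, so reads of the antisense gene cannot be told apart from those of Flt3. Of the class III receptor kinases, Kit, the stem cell factor receptor, had 18.2 FPKM, and Csf1r, the growth factor receptor of macrophages, 0.686 FPKM. Flt3 thus had 0.309 of the level of Kit and 8.18 times that of Csf1r, which was under 1 FPKM, so the size of this ratio is uncertain. The ligand gene Flt3l had 0.490 FPKM.

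Genes that carry signals from FLT3 and related receptors had higher levels than Flt3, where they had a row. Of 18 such genes, 11 had a row, beside 22.3% of RefSeq protein-coding genes (4877 of 21900) with a row, and their median was 101 FPKM. All 11 were above Flt3. The adaptor gene Grb2 had 213 FPKM and the Src-family kinase gene Lyn 190 FPKM. Of the transcription factors, Stat3, which acts downstream of FLT3 in dendritic cell precursors, had 122 FPKM, Stat5a 109 FPKM and Stat5b 30.0 FPKM. Of the phosphoinositide 3-kinase genes, the catalytic Pik3cd had 101 FPKM and the regulatory Pik3r1 24.9 FPKM. The kinase gene Mtor had 12.8 FPKM, the kinase gene Fgr 9.78 and the adaptor gene Gab2 8.18. These proteins serve many receptors, and the list is not particular to FLT3.

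Zbtb46 encodes a zinc finger repressor made by conventional dendritic cells and their committed precursors, and used to tell them from plasmacytoid cells and macrophages. It had 24.3 FPKM, rank 1538, in a row of 2 accessions of 3 to 4 exons (chromosome 2, 181390886 to 181459426, minus strand), which also spans the small nuclear RNA gene Gm22708. Of 40 Zbtb genes in RefSeq, 10 had a row, a share near the 22.3% of RefSeq protein-coding genes with a row. The median of these 10 was 8.91 FPKM, and Zbtb46 was the third highest of them. Above it were Zbtb7a, which acts in lymphoid and erythroid development, at 52.9 FPKM, and Zbtb32, a repressor in lymphocytes, at 32.5 FPKM.

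**Figure D2:**
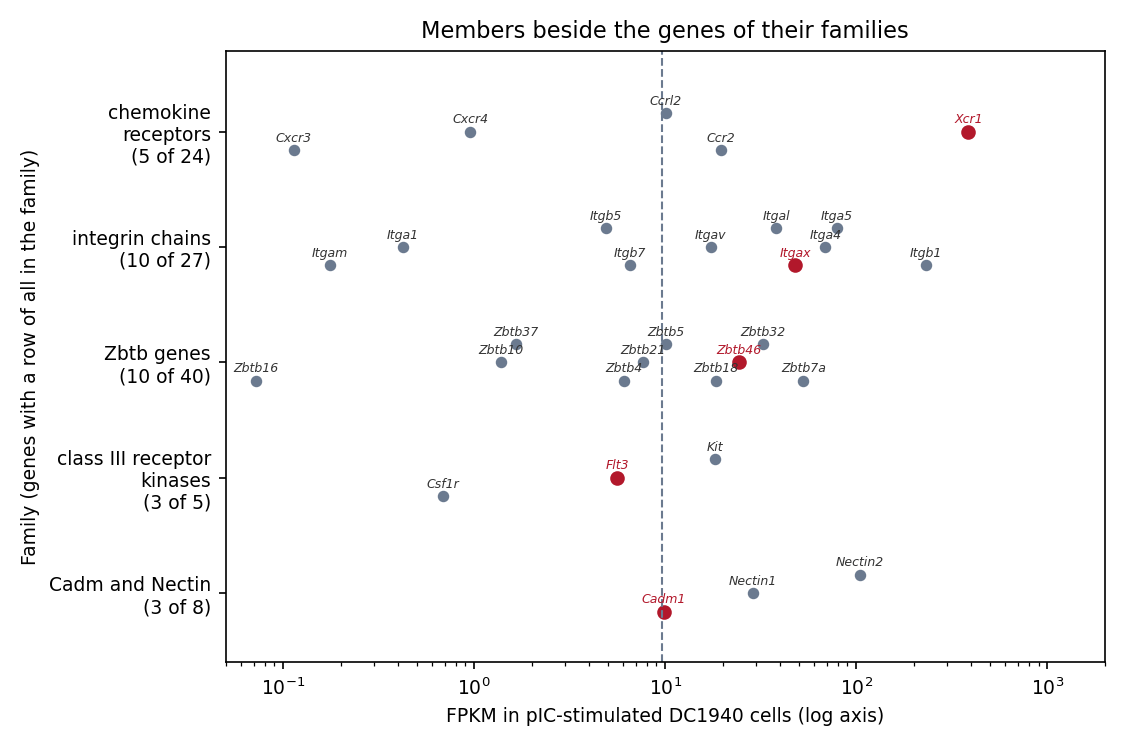
Levels in pIC-activated DC1940 cells, in FPKM on a log axis, of the genes that have a row in 5 families, with Xcr1, Itgax, Zbtb46, Flt3 and Cadm1 in red and the other genes of each family in grey. The dashed line is the median of all rows (9.68 FPKM), and small vertical shifts only keep points apart. Xcr1 is the highest chemokine receptor shown, Flt3 lies between Kit and Csf1r, and Cadm1 is the lowest of the Cadm and Nectin genes shown.

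Naaa encodes the lysosomal enzyme that breaks down palmitoylethanolamide, an N-acylethanolamine lipid with anti-inflammatory action, and it is a transcript marker of cDC1. Its 58.6 FPKM placed it below Xcr1 and Cd8a, at rank 777 (chromosome 5, 92257660 to 92278181, minus strand, 2 accessions of 11 exons). Of 8 further genes of lipid amidases and N-acylethanolamine metabolism, 7 had a row (87.5%, beside 22.3% of RefSeq protein-coding genes). Their median was 2.34 FPKM. Asah1, the related lysosomal acid ceramidase, had 50.7 FPKM, so that Naaa was 1.16 times as high. The other 6 genes ranged from 0.602 to 4.27 FPKM. Faah, the other main amidase of these lipids, had 1.22 FPKM, and Naaa was 47.9 times as high. Napepld, which makes N-acylethanolamines, had 1.57 FPKM, the ceramidase gene Asah2 2.34 FPKM, and Gde1 and Abhd4, of a parallel route of synthesis, 4.27 and 3.50 FPKM. Parts of the Naaa transcript align to transcripts of Olfr54 (583 bases, 94.7% identity) and Ccdc167 (549 bases, 92.0%), and shared reads were not measured.

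The number of fragments behind a level grows with transcript length, so equal levels do not rest on equal evidence. Level times annotated length in kilobases gives fragments per 1000000 mapped fragments, an estimate that leaves out the length correction made for fragment size. Xcr1 came to 1722 fragments per 1000000 and Cd8a to between 868 and 912. Itgax came to 194 and Naaa, with shorter transcripts, to between 95.4 and 141, the reverse of their order by level. Zbtb46 came to between 49.0 and 62.7, and Cd24a to 45.3. Flt3 rested on 20.5 fragments per 1000000, and Cadm1 on 12.3 to 44.0 depending on which of its 5 accessions was made. Of the 8 levels, those of Flt3 and Cadm1 rested on the fewest fragments.

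**Figure D3:**
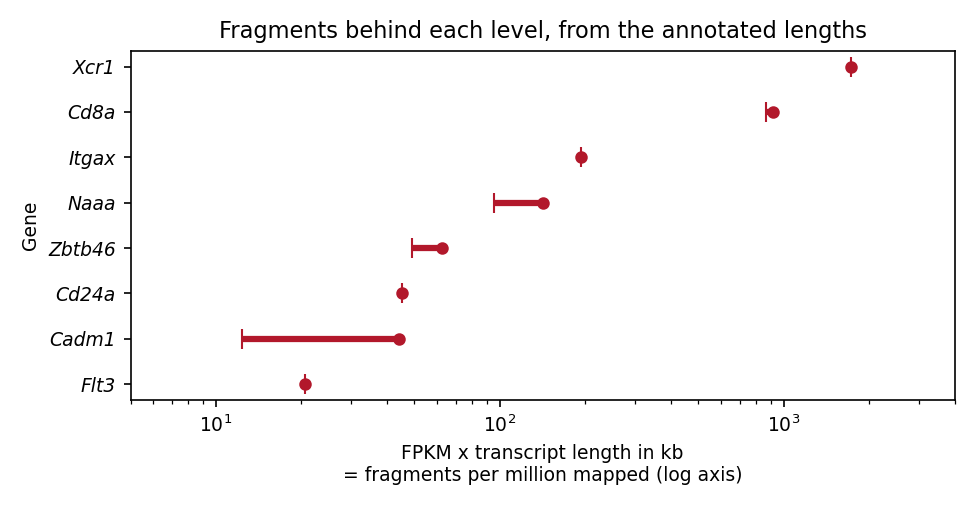
Fragments per 1000000 mapped fragments behind each level, computed as FPKM times transcript length in kilobases, on a log axis. Each line runs from the shortest (tick) to the longest (dot) GENCODE transcript that matches the accessions of the row, and it is a point where there is 1 transcript. Xcr1 at 1722 stands highest, and Cadm1 has the widest range, 12.3 to 44.0.

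The levels of further markers of this and other cell types are given beside those of the 8 genes. These lists were chosen with earlier results of these data known, so they do not test the cDC1 label. Of 22 other cDC1 genes, 11 had a row, with a median of 57.0 FPKM. This share is above the 22.3% of RefSeq protein-coding genes with a row. So are the shares of macrophage and monocyte (64.3%), plasmacytoid (41.7%) and cDC2 markers (33.3%). Having a row therefore does not set cDC1 genes apart from markers of these other cells. The nuclear protein gene Ifi205 had 715 FPKM and the chemokine gene Cxcl9 416 FPKM, and both are also known as interferon-induced genes. The endocytic receptor gene Ly75 (DEC-205) had 106 FPKM, the RNA receptor gene Tlr3 85.7 FPKM, Wdfy4, which is needed for cross-presentation, 60.5 FPKM, and Clec9a, a receptor for dead cells, 57.0 FPKM. The membrane protein gene Laptm4b had 33.3 FPKM, the scavenger receptor gene Cd36 27.9 FPKM, the profilin receptor gene Tlr11 4.36 FPKM, Gcsam 2.31 FPKM and Sept3 0.960 FPKM. Of these 11 genes, 8 were above the median of all rows, and Tlr11, Gcsam and Sept3 were below it. The other 11 genes, Itgae, Batf3, Irf8, Id2, Btla, Rab7b, Snx22, Plpp1, Clnk, Nfil3 and Cd207, are not analysed here.

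Among 23 genes shared by conventional dendritic cells, 18 had a row (78.3%, beside 22.3% of RefSeq protein-coding genes). Of these 18, 16 were above the median of all rows, and the median of the 18 was 47.7 FPKM. Spi1, which encodes the lineage factor PU.1, had 534 FPKM, the NF-kB subunit gene Relb 299 FPKM and the adaptor gene Traf1 276 FPKM. These are levels in activated cells, and the part of activation in them was not tested. Xcr1 and Cd8a were far above the median of this list, and Itgax and Naaa were close to it. Cd24a, Zbtb46, Cadm1 and Flt3 were below it.

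Markers of other cell types had lower medians, with single genes that did not. Of 15 markers of the other conventional dendritic cells (cDC2), 5 had a row, with a median of 1.85 FPKM, a sum of 21.7 FPKM and Tnfrsf11a, the RANK receptor gene, highest at 13.1 FPKM. Of 12 plasmacytoid markers, 5 had a row, with a median of 2.60 FPKM. Bst2, which is also a widely interferon-induced antiviral gene, gave 602 FPKM of their sum of 612, and Tcf4, the factor that defines the lineage, had 5.41 FPKM. Of 14 macrophage and monocyte markers, 9 had a row, with a median of 2.62 FPKM and a sum of 112 FPKM. Among these, the complement gene C1qa had 48.3 FPKM, close to Itgax, and Cd68 33.2 FPKM and Ccr2 19.6 FPKM, while Adgre1 (F4/80) had 0.460 FPKM, Csf1r 0.686 and Cd14 0.329. Of 15 lymphocyte markers, 2 had a row, Cd8b1 and Lck, with a sum of 3.33 FPKM. Of 11 fibroblast and epithelial markers, only Cdh1 had a row, at 0.772 FPKM. The share with a row was 33.3% of the cDC2, 41.7% of the plasmacytoid and 64.3% of the macrophage and monocyte markers. It was 13.3% of the lymphocyte and 9.09% of the fibroblast and epithelial markers, beside 22.3% of RefSeq protein-coding genes. None of the listed markers was at 0, and a marker without a row has an unknown level, not a level of 0. The part of other cells in the levels of the 8 genes was not tested, and in such bulk RNA fewer cells of a type and less RNA per cell cannot be told apart.

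**Figure D4:**
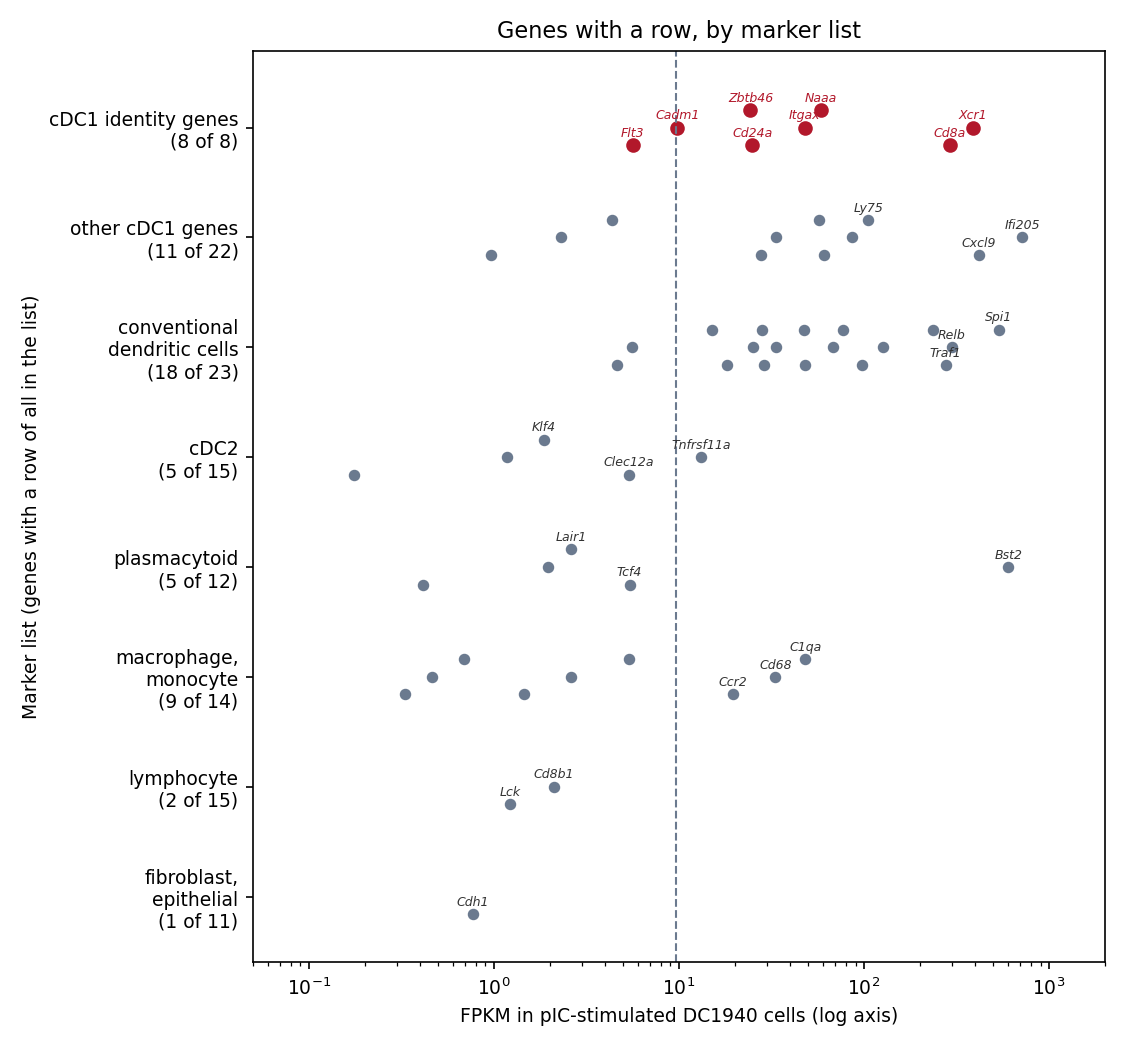
Levels in pIC-activated DC1940 cells, in FPKM on a log axis, of the genes that have a row, with the 8 cDC1 identity genes in red and 7 lists of further markers in grey. The dashed line is the median of all rows (9.68 FPKM), small vertical shifts only keep points apart, and the 3 highest genes of each grey list are named. Of the cDC2, plasmacytoid and macrophage markers, Bst2 at 602 FPKM is the only one above 100 FPKM.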

How the data were processed

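RNA sequencing of 2 libraries of pIC-activated, empty-vector DC1940 cells gave the deposited table. Per the file headers, the deposited values are FPKM, with 1 value per gene for the group. The sources used here do not say how the authors combined both libraries. Per the submitters' processing notes, the tools were FastQC 0.11.5, TopHat2 2.1.0 and Cufflinks 2.2.1, with the build mm10. The members and gene lists were chosen with earlier results of these data known, as were the motifs. Genes were named by a fixed rule: all 8 members, any gene of the cDC1, partner and FLT3 signal lists with a row, up to 3 of the highest genes of each other list and listed relatives of the members. A few further genes (the remaining N-acylethanolamine and chemokine receptor genes, and Tcf4, Adgre1 and Cd14) were named after their values had been seen. A gene that the rule names is not reported here. With 1 value per gene, likeness of pattern to other genes could not be computed.

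Ranks and percentiles were taken over all 4898 rows, and 1 blank line was left out. All 15 accessions on the members' rows matched the member itself in RefSeq. List genes were matched by symbol, accession or synonym, and the higher value was used for the 5 symbols on 2 rows. Starts count from 0, and 1 was added. Of 4802 rows with accessions of 1 gene, the start then equalled that of RefSeq (GRCm38.p6) in 2395. Lengths, exons and overlaps came from GENCODE M21. Members' transcripts were aligned to all GENCODE transcripts with BLAST 2.17.0, keeping other genes with 200 or more bases at 90% identity or more. Percentile ranking and motif search were tested on simulated data. Intervals came from SciPy 1.17.1 and figures from matplotlib 3.10.9, under Python 3.11.15 with numpy 2.4.6 and pandas 2.3.3.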

Additional observations from a re-analysis of the deposited data

How the results depend on the processing

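No paired analysis was possible because both libraries share 1 value per gene, and leaving out a library could not be run for the same reason. With rows under 1 FPKM left out, percentiles fell outside the 95% Clopper-Pearson interval of the percentile over all rows for 6 of the 8 genes: Naaa to 81.6, Itgax to 78.3, Cd24a to 64.3, Zbtb46 to 63.5, Cadm1 to 42.1 and Flt3 to 30.6, by construction, as fewer low rows remain. That interval treats rows as draws and does not measure the spread between libraries. The 16 percentiles against rows of 1 protein-coding gene, or without short RNAs, stayed inside it. The median of the members, 36.4 FPKM, was 42.5 as a geometric mean and lay between 24.9 and 47.9 with any 1 gene left out. Members at a threshold of 50 FPKM numbered 3, and at 200 FPKM 2. Other cDC1 genes with a row numbered 11, and 10 and 8 with floors of 1 and 5 FPKM. Limits set by depth could not be measured, since the table holds no counts.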

Other observations

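The rows of the table stand in rising order of locus number up to row 2406 (49.1% of rows) and in shorter runs after it. Of the 8 genes, 7 stand in that long run, and Zbtb46 stands at row 4790 of 4898. Of the 11 other cDC1 genes with a row, 8 stand in it. The sources used here do not say what set this order.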
